A study of Mus musculus with 29 samples.

Results

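Ribosomal protein genes encode the proteins of the large (60S) and small (40S) subunits of the cytosolic ribosome. In a count table of mouse hearts, 80 of 20411 genes were taken by symbol: those that start with Rpl or Rps and a number, and Rplp0, Rplp1, Rplp2 and Rpsa. Kinase genes of the Rps6k family and pseudogenes were left out, and 6 symbols that end in l or l1 after the number, such as Rpl3l, were kept apart as like-genes. Of the 80, 48 have large subunit and 32 small subunit symbols. The rule also takes Rps19bp1, which encodes a binding protein of RPS19 and not a ribosomal protein, the retrogene Rpl37rt and Rpl36al, a close relative of Rpl36a.

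The hearts came from 29 wildtype BALB/c mice in 4 groups, each given an adeno-associated virus intravenously. The virus carried REV-ERBα, a repressor of the circadian clock, or green fluorescent protein (GFP) under Tbg, a promoter used to drive genes in hepatocytes, so the heart RNA does not check the vector. C26 colon carcinoma cells, a model of cancer cachexia, were injected under the skin 10 days later, or PBS in their place. C26_REVERBa (REV-ERBα vector and tumour) held 10 hearts, C26_GFP (GFP vector and tumour) 10, PBS_REVERBa (REV-ERBα vector, no tumour) 5 and PBS_GFP (GFP vector, no tumour) 4. The sources used here do not give age, sex or the time of collection. Libraries were made from total RNA and held 3207497 to 16853646 counts. The 5 above 10000000 counts were 3 of C26_GFP and 2 of PBS_GFP. Myh6, the heart myosin gene, took the largest share of all counts, 2.31%. In 8 hearts the markers of atrial muscle averaged more than 5 on the log2 scale of CPM, which is the read count scaled to library size: 3 of C26_REVERBa, 3 of C26_GFP, 1 of PBS_REVERBa and 1 of PBS_GFP.

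A ribosome needs most of its proteins in equal numbers, and cells make them from many single genes whose output is set together. Most of the mRNAs begin with a cytosine and a run of pyrimidines, the 5′ terminal oligopyrimidine (TOP) motif, through which mTORC1 and the RNA-binding protein LARP1 control their translation and stability. Growth of the heart muscle is known to need new ribosomes, and heart and skeletal muscle use Rpl3l, a muscle form of Rpl3.

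The start of the gene was read from RefSeq promoter windows (GRCm38.p6), which held 60 of the 80 ribosomal protein genes and the 6 like-genes. A C at the annotated start followed by at least 4 bases that are each C or T, read on the gene's own strand, was present in 13 of 60 genes (21.67%), against 813 of 27025 genes in the whole table (3.01%). With such a stretch of 5 bases allowed anywhere that lies whole within 10 bases of the start on either side, 31 of 60 (51.67%) had one, against 29.93% of all genes. A window without a run says only that these letters are not at that annotated start. The 30-base windows below belong to genes whose values are given later, with the start at base 16, and capitals mark the run that meets this wider rule. In the first 4 the stretch at the start itself also meets the rule.
Rps6, chr4:86857353-86857382, minus strand: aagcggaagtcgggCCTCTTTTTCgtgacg
Rps18, chr17:33955651-33955680, minus strand: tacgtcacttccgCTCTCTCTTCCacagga
Rpl14, chr9:120571502-120571531, plus strand: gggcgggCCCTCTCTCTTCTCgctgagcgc
Rpl15, chr14:18270972-18271001, minus strand: gtgggagaaagCCTTCTTCCTTTCCTCTgg
Rps9, chr7:3704026-3704055, plus strand, has a run that begins before the start and crosses it: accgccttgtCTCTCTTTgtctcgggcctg
Rps24, chr14:24490663-24490692, plus strand, likewise: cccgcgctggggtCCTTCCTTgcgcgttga
Rps28, chr17:33824548-33824577, minus strand, has none within 10 bases: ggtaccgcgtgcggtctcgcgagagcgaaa
Rpl3l, chr17:24727811-24727840, plus strand, has none that lies whole within 10 bases: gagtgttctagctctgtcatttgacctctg

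Of the 80 genes, 77 had enough counts to be tested, as did 12928 of all genes. Rpl26, Rpl30 and Rps27 were not tested. The deposited table gives them counted lengths of 23, 43 and 1 bases, so their low counts (173, 220 and 67 over all hearts) say little about their mRNAs. Rpl34 was tested on a counted length of 79 bases. Ribosomal protein genes have many near-identical processed copies in the genome, so reads can be split or lost in counting, and each gene's level is uncertain for that reason.

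Per kilobase of counted length, the 77 genes had a median level of 56.9 CPM, against 9.09 CPM for all genes tested. Their median counted length was 696 bases, against 2855 bases for all. Levels per kilobase differed widely among the 77 genes, between 5.04 and 370 CPM. Rps2, at the mRNA entry of the small subunit, stood at 370 CPM per kilobase and the stalk protein gene Rplp1 at 281 CPM per kilobase. At the low end were Rps21 at 5.60, Rpl37rt at 5.35 and Rps15a at 5.04 CPM per kilobase. The low value of Rps15a goes with a counted length of 5134 bases, far longer than those of the others.

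The genes together took a small part of each library. Their share of all counts was 0.366 to 0.496% in C26_REVERBa hearts (median 0.416%), 0.413 to 0.5002% in C26_GFP (0.473%), 0.370 to 0.459% in PBS_REVERBa (0.415%) and 0.378 to 0.426% in PBS_GFP (0.413%). For the lowest heart, C26_REVERBa replicate 8, the exact 95% binomial interval was 0.360 to 0.373%, and for the highest, C26_GFP replicate 6, it was 0.497 to 0.504%. Differences between hearts are therefore larger than counting error, which is all these intervals cover. The median over the 77 genes of log2 CPM, each gene set against its mean over all hearts, was -0.27 to 0.19 in C26_REVERBa, -0.07 to 0.23 in C26_GFP, -0.20 to 0.08 in PBS_REVERBa and -0.18 to 0.01 in PBS_GFP. The group means were -0.04 ± 0.16 (SD, n = 10), 0.12 ± 0.11 (SD, n = 10), -0.08 ± 0.12 (SD, n = 5) and -0.08 ± 0.08 (SD, n = 4), in that order. Of the C26_GFP hearts, 8 of 10 lay above the highest PBS_GFP heart, and of the C26_REVERBa hearts 4 of 10 did.

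**Figure D1:**
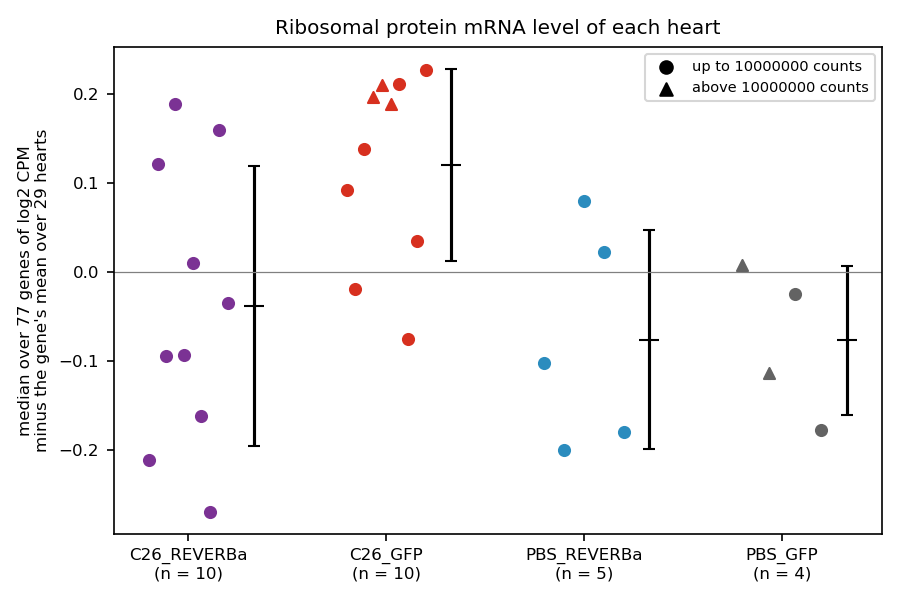
Each point is a heart, and the vertical axis is the median over 77 ribosomal protein genes of log2 CPM minus the gene's mean over 29 hearts. Bars give the group mean ± SD, triangles mark hearts above 10000000 counts, and 8 of 10 C26_GFP hearts lie above all 4 PBS_GFP hearts.

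Within C26_REVERBa the medians ran between -0.27 in replicate 8 and 0.19 in replicate 4. The high-atrium hearts are given beside the others of their group. In C26_REVERBa, the 3 hearts with high atrial markers had medians of -0.04 to 0.19, against -0.27 to 0.12 for the other 7, and in C26_GFP 0.03 to 0.21, against -0.07 to 0.23 for the other 7.

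**Figure D2:**
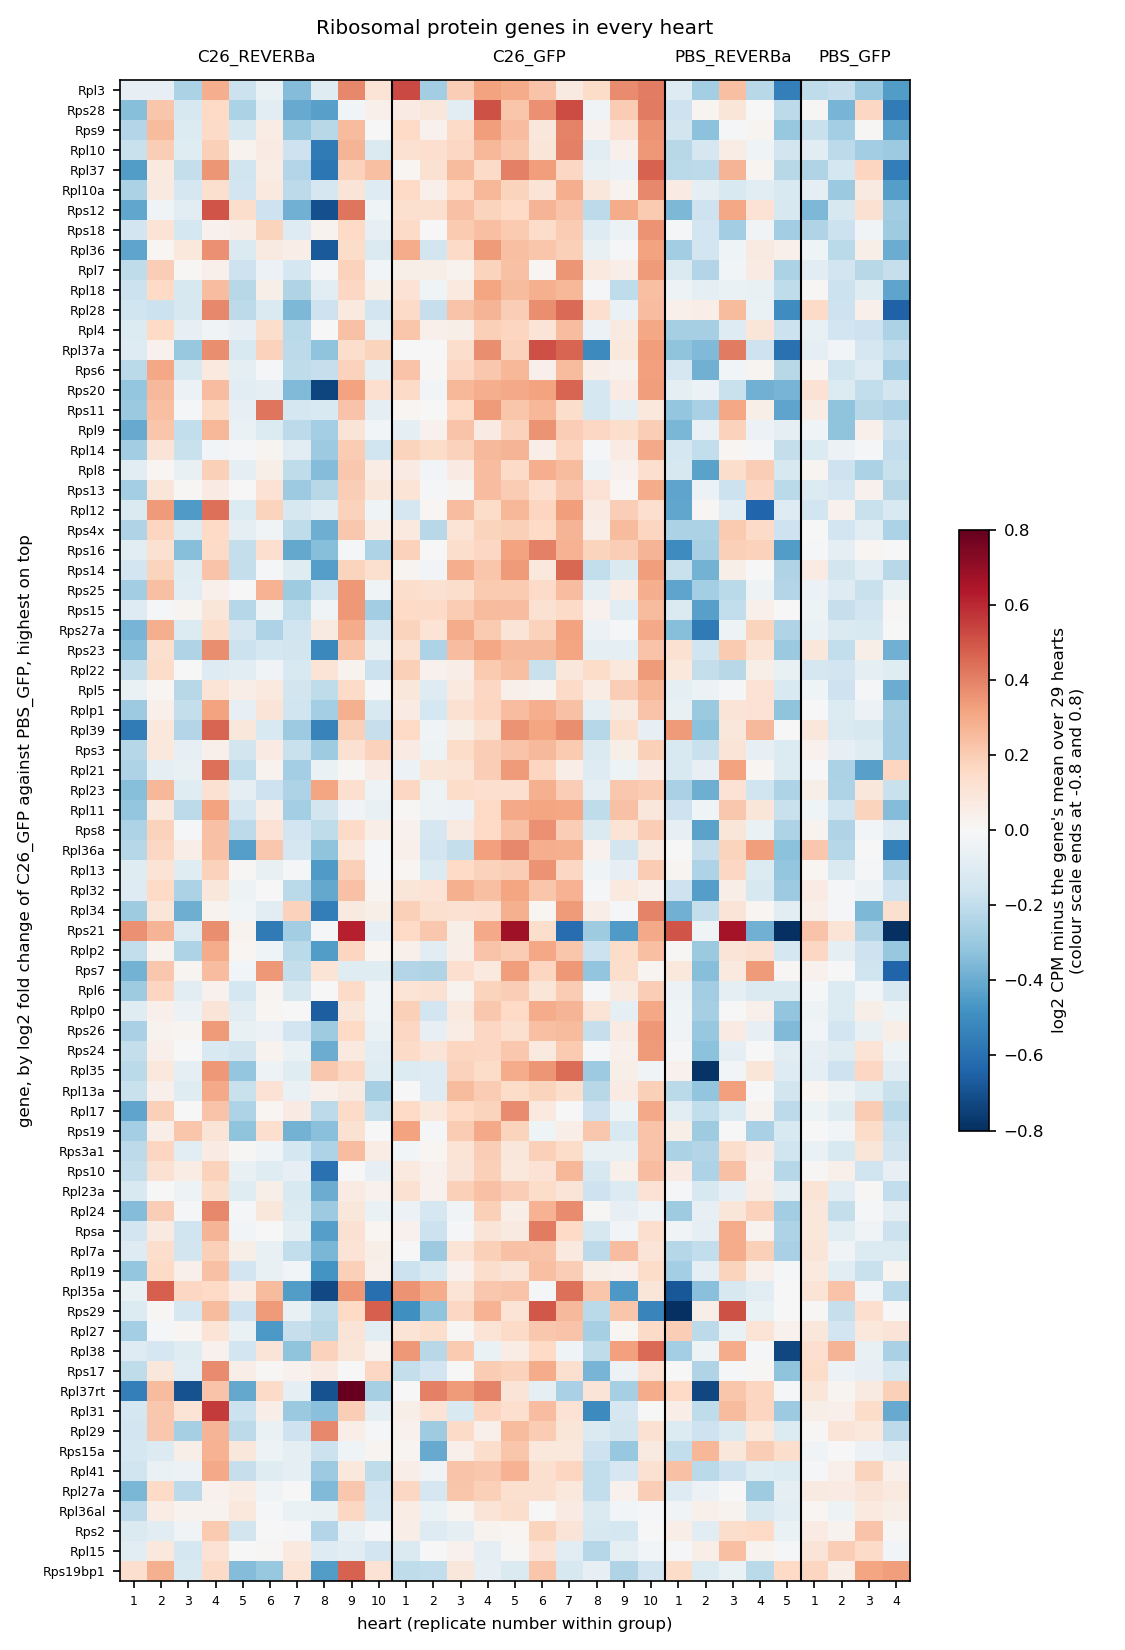
Rows are 75 of the 77 tested ribosomal protein genes, ordered by their change in C26_GFP against PBS_GFP, columns are the 29 hearts by group, and colour is log2 CPM minus the gene's mean. The C26_GFP block is mostly above 0, and single C26_REVERBa hearts such as replicates 4 and 8 are high or low over most rows.

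Hearts of tumour-bearing and tumour-free mice with the GFP vector were compared first. Ribosomal protein mRNAs were higher in C26_GFP than in PBS_GFP hearts by a small amount. Of 77 genes, 23 rose and 0 fell at an edgeR quasi-likelihood adjusted p under 0.05 (29.9%), against 14.2% of all genes tested that were called higher and 14% called lower. The median log2 fold change of the 77 was 0.21, against 0.00 for all genes, and 73 were above 0. The large subunit had 14 of 46 genes called higher with a median of 0.21, and the small subunit 9 of 30 with a median of 0.24. Changes lay between -0.28 for Rps19bp1 and 0.52 for Rpl3. Of the 77, 7 had all C26_GFP hearts above all PBS_GFP hearts, against 5.65% of all genes, and 0 had them all below, against 6.31% of all genes.

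Rpl3, a protein near the peptidyl transferase centre of the large subunit (NM_013762, mm10 chromosome 15, 80077781 to 80083406), changed most. It had a lowest, median and highest level of 49.5, 72.0 and 86.7 CPM in the 10 C26_GFP hearts, against 52.2, 52.8, 48.8 and 43.9 CPM in the 4 PBS_GFP hearts. In C26_GFP 9 of 10 hearts were above every PBS_GFP heart. The log2 fold change was 0.52 ± 0.13 (edgeR adjusted p = 0.00351). Rpl4, which lines the exit tunnel of the nascent chain (NM_024212, chromosome 9, 64173387 to 64178562), had 171, 194 and 219 CPM in C26_GFP, against 169, 159, 157 and 148 CPM in PBS_GFP. The 2 groups did not overlap, and the change was 0.30 ± 0.08 (edgeR adjusted p = 0.00402). Rpl10, which joins late and completes the large subunit (NM_052835, chromosome X, 74270816 to 74273135), had 54.0, 63.4 and 75.7 CPM in C26_GFP, against 53.9, 49.5, 47.1 and 46.8 CPM in PBS_GFP. Its groups too did not overlap, though the lowest C26_GFP heart was only just above the highest PBS_GFP heart, and the change was 0.38 ± 0.10 (edgeR adjusted p = 0.00516). Rpl3, Rpl4 and Rpl10 passed in each of 40 alternative fits, among them those that leave out 1 heart.

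Rpl10a, the protein of the L1 stalk where the spent tRNA leaves (NM_011287, chromosome 17, 28328471 to 28331033), had the smallest p. Its levels were 41.6, 45.5 and 53.2 CPM in C26_GFP (lowest, median, highest), against 38.5, 33.1, 42.8 and 29.9 CPM in PBS_GFP. The groups overlapped at PBS_GFP replicate 3, and the change was 0.35 ± 0.08 (edgeR adjusted p = 0.00239). Rpl7 had 125, 130 and 158 CPM in C26_GFP, against 116, 111, 106 and 109 CPM in PBS_GFP. The groups did not overlap, and this large subunit gene rose by 0.30 ± 0.08 (edgeR adjusted p = 0.00388). Rpl14 had 75.3, 85.5 and 93.5 CPM in C26_GFP, against 70.1, 73.4, 74.9 and 66.0 CPM in PBS_GFP, also without overlap. It rose by 0.26 ± 0.07 (edgeR adjusted p = 0.00953). Rpl6 rose by 0.19 ± 0.06 (edgeR adjusted p = 0.0264), but not without PBS_GFP replicate 2 or 4 (edgeR adjusted p = 0.0873 and 0.0838).

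In the small subunit, Rps9, a protein beside the mRNA entry channel (NM_029767, chromosome 7, 3704041 to 3706897), had 119, 129 and 153 CPM in C26_GFP, against 102, 96.1, 117 and 86.6 CPM in PBS_GFP. All C26_GFP hearts were above all PBS_GFP hearts, and the change was 0.41 ± 0.10 (edgeR adjusted p = 0.00267). Rps18, in the head of the small subunit (NM_011296, chromosome 17, 33951999 to 33955641), had 46.0, 56.1 and 63.6 CPM in C26_GFP, against 41.9, 43.9, 48.5 and 40.7 CPM in PBS_GFP. It rose by 0.33 ± 0.08 (edgeR adjusted p = 0.00251), with 8 of 10 C26_GFP hearts above every PBS_GFP heart. Rps6, the substrate of the S6 kinases downstream of mTORC1, had 79.2, 89.8 and 98.9 CPM in C26_GFP, against 80.0, 70.2, 73.2 and 64.8 CPM in PBS_GFP. It rose by 0.29 ± 0.09 (edgeR adjusted p = 0.0146), but did not pass without PBS_GFP replicate 2 or 4 (edgeR adjusted p = 0.05 and 0.0682). Rps28, near the mRNA exit, rose by 0.42 ± 0.14 (edgeR adjusted p = 0.021). Its call ended without PBS_GFP replicate 2 or 4 (edgeR adjusted p = 0.116 and 0.0938).

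Further calls were Rpl5, which carries the 5S rRNA into the ribosome, with Rpl8, Rpl9, Rpl18, Rpl22, Rpl37, Rps3, Rps13, Rps15 and Rps25. Their changes were between 0.22 and 0.38. Rps25 passed in 22 of 40 alternatives. The P stalk, which recruits the elongation factors, gave 0.19 ± 0.10 for Rplp0, 0.23 ± 0.10 for Rplp1 and 0.20 ± 0.11 for Rplp2 (edgeR adjusted p = 0.146, 0.103 and 0.166). Rpsa gave 0.11 ± 0.10 (edgeR adjusted p = 0.423). These 4 did not pass the test, with values on the same side as most of the set.

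Few genes lay on the other side. Rps2, the most abundant of the set, had 334, 370 and 417 CPM in C26_GFP, against 385, 376, 431 and 371 CPM in PBS_GFP. Its change was -0.09 ± 0.07 (edgeR adjusted p = 0.347). Rpl15, whose start carries a long pyrimidine run, gave -0.16 ± 0.06 (edgeR adjusted p = 0.0557). Rps19bp1 gave -0.28 ± 0.13 (edgeR adjusted p = 0.0984), with 8 of 10 C26_GFP hearts below every PBS_GFP heart. Leaving out Rps19bp1, Rpl37rt and Rpl36al, the count was 23 of 74 with a median of 0.21.

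**Figure D3:**
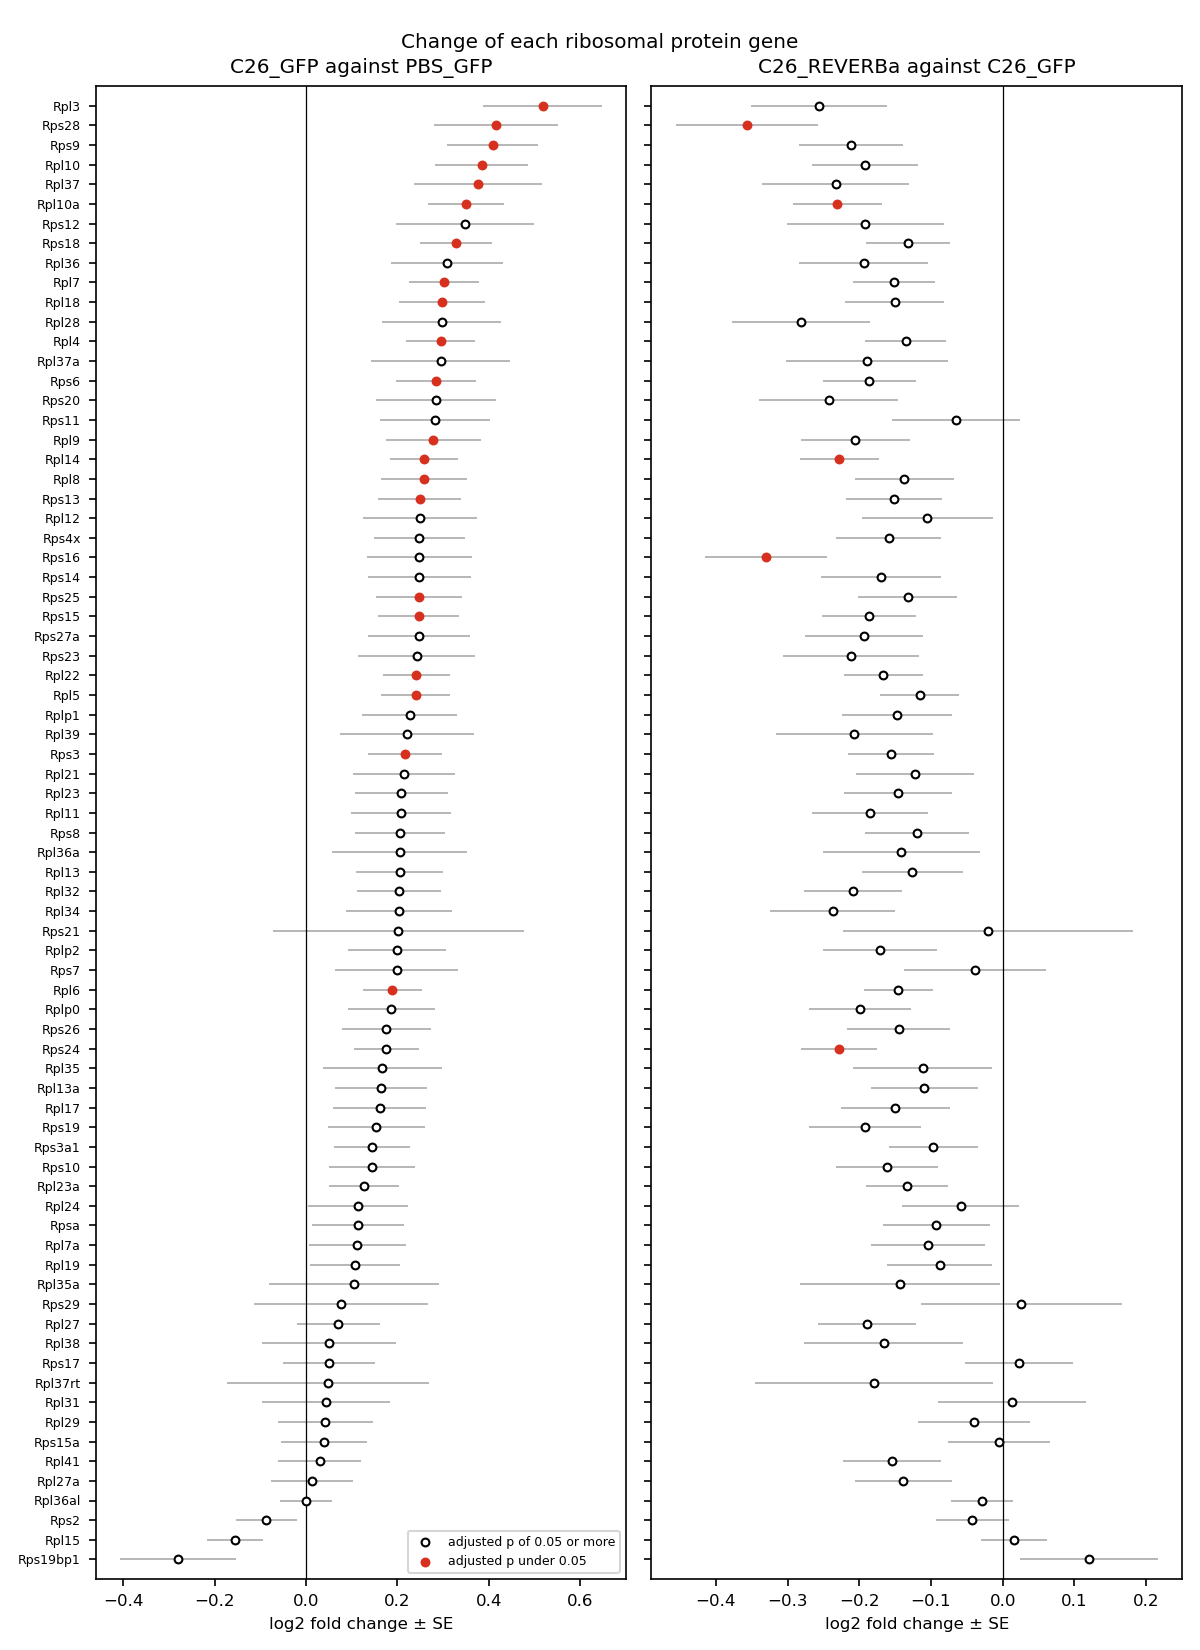
Each of 75 rows is a tested ribosomal protein gene with its log2 fold change ± SE in C26_GFP against PBS_GFP (left) and C26_REVERBa against C26_GFP (right), and filled points have an adjusted p under 0.05. Most points lie right of 0 on the left and left of 0 on the right, where the filled points are Rps28, Rpl10a, Rpl14, Rps16 and Rps24. Both panels use the same C26_GFP hearts.

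Calls were more frequent among abundant genes, while the median change was similar at each level. Of 26 genes at 60 CPM or more, 14 were called higher with a median log2 fold change of 0.23. Of 34 genes at 20 to 60 CPM, 8 were called with a median of 0.21, and of 17 genes under 20 CPM, 1 was called with a median of 0.20. Genes with a run at the annotated start had a median of 0.18 over 12 genes, against 0.21 over 46 genes without one. With a run whole within 10 bases the medians were 0.18 over 30 genes and 0.21 over 28 genes without one.

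The number of calls changed when libraries were left out or thinned, and the cause was not tested. Leaving out the deep libraries also removes 3 C26_GFP and 2 PBS_GFP hearts. Without the 5 libraries above 10000000 counts 4 ribosomal protein genes were called higher, with every library thinned to the smallest total 11, and without the 8 high-atrium hearts 11. Without PBS_GFP replicate 2 or without replicate 4 there were 12. Of the genes described, Rpl10a, Rpl14, Rps9 and Rps18 did not pass without the deep libraries (edgeR adjusted p = 0.0746 to 0.124). Rpl7, Rpl10a and Rpl14 did not pass with thinned ones (edgeR adjusted p = 0.0567 to 0.174). Rpl6, Rps6, Rps25 and Rps28 passed in neither. The median stayed between 0.17 and 0.25 in all of these.

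Other measures of C26_GFP and PBS_GFP hearts are given beside this result, and their part in it was not tested. Of all genes 14.2% were called higher and 14% lower, so a single call in a list of 4 or 5 markers says little. In bulk tissue, fewer cells of a type and less RNA per cell cannot be told apart. Of 8 cardiomyocyte markers, 5 fell and 1 rose, and their summed level was 42600 to 55500 CPM in C26_GFP, against 56000 to 59500 CPM in PBS_GFP, without overlap. Of 5 fibroblast markers 2 rose, with sums of 846 to 1220 CPM in C26_GFP and 686 to 893 CPM in PBS_GFP. Of 5 macrophage markers 1 rose, with sums of 257 to 479 CPM in C26_GFP and 251 to 318 CPM in PBS_GFP. Both tested markers of dividing cells fell, with sums over 5 genes of 1.82 to 9.01 CPM in C26_GFP and 14.1 to 26.7 CPM in PBS_GFP. Sums over 5 epithelial markers, which C26 cells could bring, were 0.997 to 9.01 CPM in C26_GFP and 0.861 to 3.69 CPM in PBS_GFP, where 1 of the 5 had no count. Of 5 endothelial markers 1 rose and 1 fell, with sums of 785 to 982 CPM in C26_GFP and 961 to 1040 CPM in PBS_GFP. Of 4 smooth muscle markers 1 fell, with sums of 64.8 to 275 CPM in C26_GFP and 159 to 319 CPM in PBS_GFP. The 1 tested T cell marker rose, and 2 of 4 tested hepatocyte markers fell, with hepatocyte sums of 0.645 to 24 CPM in C26_GFP and 0.901 to 89.4 CPM in PBS_GFP. Ribosomal protein mRNAs are short, and 858 other genes under 1000 bases had a median change of -0.07.

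Tumour-bearing mice with either vector were compared next. This comparison shares the C26_GFP hearts with the first, so a high or low C26_GFP group moves both in opposite directions. Of 77 ribosomal protein genes, 0 rose and 6 fell in C26_REVERBa against C26_GFP hearts (7.79%), against 3.45% of all genes called lower, 3.75% called higher and 7.2% either way. The median log2 fold change was -0.15, against 0.00 for all genes, and 5 of the 77 were above 0. At an unadjusted p under 0.05, 40 were lower and 0 higher, against 1561 lower and 1575 higher among all 12928 genes tested. In no case did the groups separate, a pattern that 0.00774% of all genes showed on the lower side. Of the 6 called, 4 encode small subunit proteins (of 30) and 2 large subunit proteins (of 46). The medians over all tested genes of the small and large subunit were -0.16 and -0.15.

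Rps24, a small subunit protein gene that is mutated in some people with Diamond-Blackfan anaemia (NM_207635, chromosome 14, 24490681 to 24496146), had the smallest p. Its lowest, median and highest levels were 66.5, 83.7 and 92.7 CPM in C26_REVERBa, against 86.8, 98.1 and 111 CPM in C26_GFP. All 10 C26_REVERBa hearts were below the C26_GFP median, and 6 were below the lowest C26_GFP heart. The change was -0.23 ± 0.05 (edgeR adjusted p = 0.0143), and it passed in each of 40 alternatives. Rpl14, a protein at the surface of the large subunit, had 62.0, 72.9 and 87.2 CPM in C26_REVERBa, against 75.3, 85.5 and 93.5 CPM in C26_GFP. It fell by 0.23 ± 0.06 on the log2 scale (edgeR adjusted p = 0.0172), with 7 of 10 C26_REVERBa hearts below every C26_GFP heart. Rps16, whose tail reaches the peptidyl-tRNA site (NM_013647, chromosome 7, 28350689 to 28352698), had 10.2, 12.4 and 15.2 CPM in C26_REVERBa, against 13.6, 15.6 and 18.1 CPM in C26_GFP. The change was -0.33 ± 0.09 (edgeR adjusted p = 0.0226), and it did not pass without C26_REVERBa replicate 7 (edgeR adjusted p = 0.0557).

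Rpl10a had 34.1, 37.5 and 44.6 CPM in C26_REVERBa, against 41.6, 45.5 and 53.2 CPM in C26_GFP. Its change of -0.23 ± 0.06 (edgeR adjusted p = 0.0264) did not pass without C26_GFP replicate 7 or 10 or C26_REVERBa replicate 1 or 7 (edgeR adjusted p = 0.0538 to 0.065). Rps28 had 8.61, 10.8 and 13.7 CPM in C26_REVERBa, against 11.05, 13.63 and 16.92 CPM in C26_GFP. Its change of -0.36 ± 0.10 (edgeR adjusted p = 0.0314) did not pass without C26_GFP replicate 4, 7 or 10 or C26_REVERBa replicate 1 or 7 (edgeR adjusted p = 0.057 to 0.072). Rpl6 at -0.15 ± 0.05, Rpl32 at -0.21 ± 0.07, Rps6 at -0.19 ± 0.06 and Rpl3 at -0.26 ± 0.09 did not pass (edgeR adjusted p = 0.0578, 0.0583, 0.0727 and 0.0908).

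The number of calls moved with single hearts in both directions. It was 22 without C26_REVERBa replicate 9, a high-atrium heart, and 13 without replicate 2, and 3 and 2 without C26_REVERBa replicates 1 and 7. It was 10 without C26_GFP replicate 6 or 9, and 3 without C26_GFP replicate 7 or 10. Without the 8 high-atrium hearts 19 genes were lower, with DESeq2 12, with thinned libraries 1, and without the 5 deep libraries 4. The median over the set was -0.22 to -0.12 in all of these. Rps24 was the 1 gene that passed with thinned libraries, and Rps16 and Rps28 did not pass without the deep ones (edgeR adjusted p = 0.0684 and 0.1). Beside it, 1 of 8 cardiomyocyte markers rose (summed level 45600 to 59200 CPM in C26_REVERBa, against 42600 to 55500 CPM in C26_GFP), 1 of 5 fibroblast markers fell (737 to 1170 CPM in C26_REVERBa, against 846 to 1220 CPM in C26_GFP) and 1 of 5 macrophage markers fell (242 to 350 CPM in C26_REVERBa, against 257 to 479 CPM in C26_GFP). Of 4 smooth muscle markers 1 rose, with sums of 71.8 to 305 CPM in C26_REVERBa and 64.8 to 275 CPM in C26_GFP. At an unadjusted p under 0.05, 6 of 8 cardiomyocyte, 3 of 3 tested adipocyte and 3 of 4 tested hepatocyte markers were higher. Lower were 2 of 5 fibroblast markers, 2 of 5 macrophage markers and the 1 tested T cell marker. Of all 12928 genes, 1575 were higher and 1561 lower at that cut. Summed adipocyte levels were 0.146 to 325 CPM in C26_REVERBa (median 1.77 CPM) and 0.251 to 31 CPM in C26_GFP (median 5.68 CPM). Hepatocyte sums, low in most hearts, were 0.891 to 89.1 CPM in C26_REVERBa (median 8.67 CPM) and 0.645 to 24 CPM in C26_GFP (median 1.46 CPM). The part of these markers in the result was not tested. Other genes under 1000 bases had a median of -0.01 in this comparison.

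Without a tumour, no ribosomal protein gene differed between the vectors by the test. In PBS_REVERBa against PBS_GFP hearts, 0 of 77 genes and 0% of all genes passed in edgeR, and 0 of the 77 passed in DESeq2. At an unadjusted p under 0.05 there were 0 of the 77, against 279 higher and 251 lower among all 12928. The median over the 77 was 0.00, with 39 above 0. Rpl27a was the 1 gene without overlap between groups, a pattern that 0.774% of all genes showed on the lower and 0.859% on the higher side. Its levels were 39.0, 40.6, 41.8, 34.3 and 39.9 CPM in PBS_REVERBa, against 44.0, 43.7, 45.0 and 44.2 CPM in PBS_GFP, a change of -0.18 ± 0.10 (edgeR adjusted p = 1).

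Under the REV-ERBα vector, the tumour's difference was small. In C26_REVERBa against PBS_REVERBa hearts 0 of 77 genes passed in either direction, against 4.05% of all genes called higher, 3.19% called lower and 7.23% either way. In 0 of the 77 did the groups separate, against 1.1% of all genes on the higher side. The median was 0.06, with 59 of 77 above 0. At an unadjusted p under 0.05, 3 were higher and 0 lower, against 1583 higher and 1473 lower among all 12928. The smallest p was that of Rps25, a small subunit protein used by some viral internal ribosome entry sites. It had 44.5, 53.6 and 69.1 CPM in C26_REVERBa (lowest, median, highest), against 40.5, 44.9, 46.7, 52.9 and 46.1 CPM in PBS_REVERBa. Of the C26_REVERBa hearts 6 of 10 were above every PBS_REVERBa heart, with a change of 0.25 ± 0.09 (edgeR adjusted p = 0.0818). Rpl12, at the base of the P stalk, gave 0.29 ± 0.13 (edgeR adjusted p = 0.158). Rpl3 gave 0.15 ± 0.12 and Rpl10a 0.02 ± 0.08 (edgeR adjusted p = 0.473 and 0.933).

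The difference between the tumour effects under the vectors was tested directly. The interaction, which is the change under REV-ERBα minus that under GFP, passed for 0 of 77 genes and 0% of all genes in edgeR. Its median over the 77 was -0.14, with 11 above 0. At an unadjusted p under 0.05, 7 were lower and 0 higher, against 638 lower and 719 higher among all 12928. Rpl10a, at -0.33 ± 0.11 (edgeR adjusted p = 0.341), and Rps28, at -0.47 ± 0.19 (edgeR adjusted p = 0.396), had the smallest p. So the tumour effect on these genes was not shown to differ between vectors. Across the 77 genes the 2 tumour effects, which use separate hearts, had a Pearson correlation of 0.27, against 0.54 across all genes tested. These are descriptions across genes, which are not independent replicates.

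**Figure D4:**
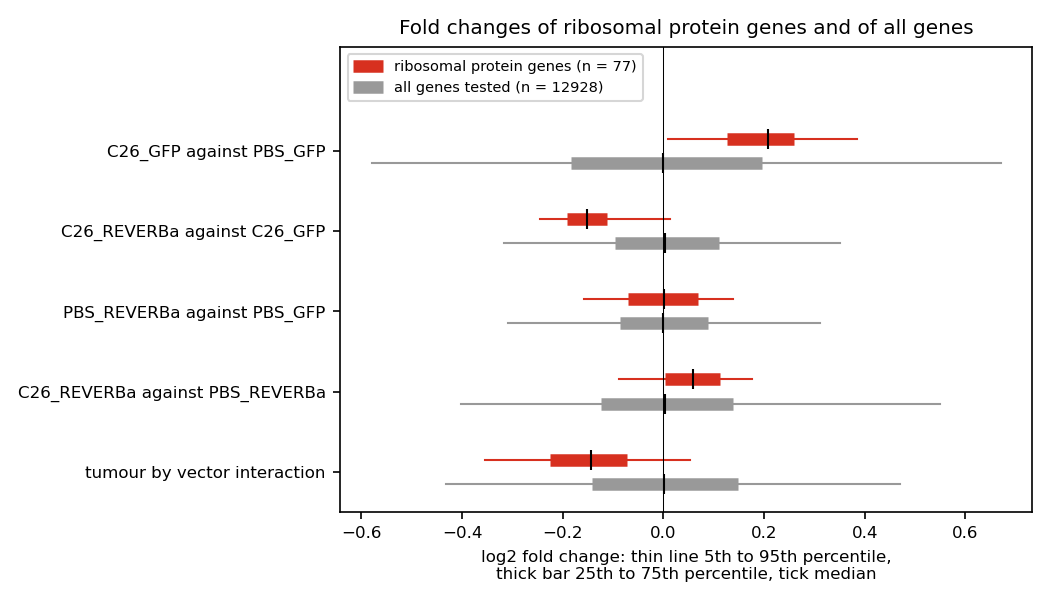
For each comparison, log2 fold changes of 77 ribosomal protein genes (red) and of all 12928 genes tested (grey) are drawn by percentile, from 5 to 95 as a thin line and from 25 to 75 as a bar, with a tick at the median. The red medians are 0.21, -0.15, 0.00, 0.06 and -0.14 from top to bottom, and the grey ones lie at 0.

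Among the like-genes, Rpl3l was abundant in every heart. It encodes the protein that takes the place of RPL3 in ribosomes of striated muscle (NM_001163945, chromosome 17, 24727829 to 24736149). Its lowest, median and highest levels were 155, 210 and 225 CPM in C26_REVERBa and 150, 192 and 245 CPM in C26_GFP. It had 208, 200, 216, 238 and 192 CPM in PBS_REVERBa and 227, 185, 214 and 203 CPM in PBS_GFP. The groups overlapped, and the change was -0.13 ± 0.10 in C26_GFP against PBS_GFP and 0.10 ± 0.07 in C26_REVERBa against C26_GFP (edgeR adjusted p = 0.328 and 0.428).

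Set against Rpl3 within each heart and per counted length, Rpl3l was the higher of the 2 in every heart. The ratio of Rpl3l to Rpl3 was 1.96 to 4.46 in C26_REVERBa (median 3.62) and 1.72 to 3.98 in C26_GFP (median 2.60). It was 3.69, 4, 3.03, 4.59 and 4.63 in PBS_REVERBa and 4.32, 3.48, 4.34 and 4.57 in PBS_GFP. Only 1 of the C26_GFP hearts, replicate 2 at 3.98, reached the range of the PBS_GFP hearts. On the log2 scale the ratio averaged 1.40 ± 0.36 (SD, n = 10) in C26_GFP and 2.05 ± 0.18 (SD, n = 4) in PBS_GFP, a difference of -0.65. A two-sided exact permutation test gave p = 0.004 for it, or 0.016 adjusted over the 4 comparisons of this ratio. Without PBS_GFP replicate 1, 3 or 4 the adjusted exact permutation p was 0.0559, and without the 5 deep libraries the difference was -0.80 with an adjusted exact permutation p of 0.111. C26_REVERBa averaged 1.76 ± 0.34 (SD, n = 10), which was 0.36 above C26_GFP (two-sided permutation test with resampling, p = 0.0355, adjusted 0.071). This difference was larger and passed without C26_GFP replicate 2 or 6 or C26_REVERBa replicate 9, at 0.43, 0.41 and 0.45. PBS_REVERBa averaged 1.98 ± 0.25 (SD, n = 5), a difference of -0.08 from PBS_GFP (exact permutation p = 0.603, adjusted 0.603). The C26_REVERBa hearts differed from PBS_REVERBa by -0.21 (exact permutation p = 0.229, adjusted 0.305). A ratio alone shows unequal change of the pair and not which of them moved. Rpl3l is a muscle form, and summed cardiomyocyte markers were 42600 to 55500 CPM in C26_GFP and 56000 to 59500 CPM in PBS_GFP. Sums for other cell types are given above, and the part of the cell mix in the ratio was not tested. Tested singly in edgeR, Rpl3 passed in C26_GFP against PBS_GFP, with a log2 fold change of 0.52, and Rpl3l did not. The ratio uses the same Rpl3 counts as that change.

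**Figure D5:**
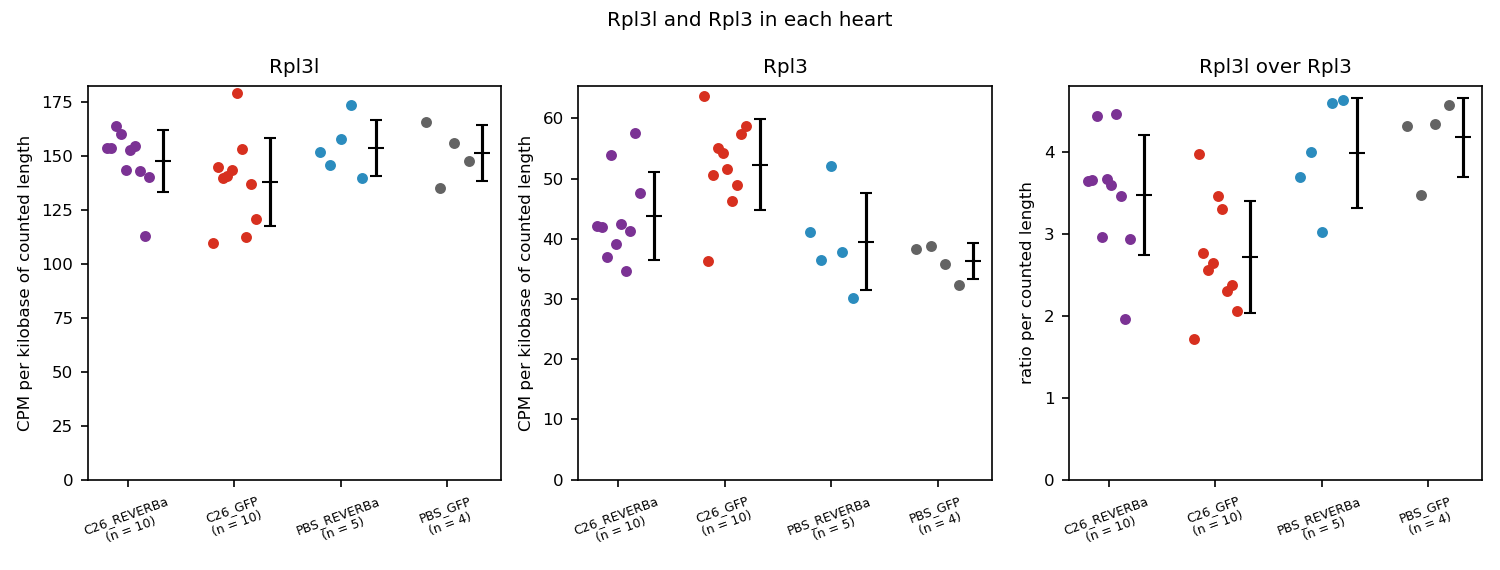
Levels of Rpl3l and Rpl3 in CPM per kilobase of counted length, and their ratio, are drawn for each heart by group with mean ± SD. Rpl3l overlaps between all groups, Rpl3 is higher in most C26_GFP hearts, and the ratio is lowest in C26_GFP, with a median of 2.60 against 4.33 in PBS_GFP.

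Rpl7l1, a relative of Rpl7, moved against Rpl7 itself. It had 43.3, 48.2 and 56.0 CPM in C26_GFP (lowest, median, highest), against 54.8, 59.4, 59.7 and 61.1 CPM in PBS_GFP. Of the C26_GFP hearts 9 of 10 were below every PBS_GFP heart, and the change was -0.27 ± 0.07 (edgeR adjusted p = 0.0039), which passed in each of 40 alternatives. In C26_REVERBa against C26_GFP it gave 0.03 ± 0.05 (edgeR adjusted p = 0.819). Rpl22l1, a relative of Rpl22, and Rps27l, a target of p53, gave 0.36 ± 0.21 and 0.01 ± 0.16 in C26_GFP against PBS_GFP (edgeR adjusted p = 0.208 and 0.979). Rpl10l and Rpl39l, known from the testis, had 0 and 5 counts over all hearts and were not tested.

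Of 3 ribosomal protein genes under other symbols, 1 rose in C26_GFP against PBS_GFP, where 14.2% of all genes were called higher. Gnb2l1, which encodes the small subunit scaffold RACK1, had 99.1, 114 and 124 CPM in C26_GFP, against 105, 87.9, 96.1 and 101.5 CPM in PBS_GFP, and rose by 0.20 ± 0.08 (edgeR adjusted p = 0.0469). Fau, which encodes a fusion of a ubiquitin-type domain with RPS30, gave 0.16 ± 0.12 (edgeR adjusted p = 0.341). None of these 3 passed in C26_REVERBa against C26_GFP, where 2 were lower at an unadjusted p under 0.05 in edgeR. At that cut 1561 of all 12928 genes tested were lower.

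Of 17 other mRNAs of the TOP class and elongation factors, 10 rose (58.8%) and 0 fell in C26_GFP against PBS_GFP, against 14.2% of all genes called higher and 14% called lower. The median was 0.27, with 16 above 0. Eef2, the translocase of elongation, had 1679, 2011 and 2400 CPM in C26_GFP, against 1436, 1403, 1363 and 1403 CPM in PBS_GFP, without overlap. It rose by 0.55 ± 0.08 (edgeR adjusted p = 2.6e-05). Eef1a1, which brings aminoacyl-tRNA to the ribosome, rose by 0.47 ± 0.11, the initiation factor gene Eif4b by 0.49 ± 0.12 and the nascent chain factor gene Btf3 by 0.44 ± 0.09 (edgeR adjusted p = 0.0015, 0.00272 and 0.0007). In C26_REVERBa against C26_GFP 2 of the 17 fell (11.8%, against 3.45% of all genes), with a median of -0.14. Eef2 had 1425, 1652 and 2023 CPM in C26_REVERBa and fell by 0.28 ± 0.06 on the log2 scale (edgeR adjusted p = 0.013), and the RNA-binding protein gene Hnrnpa1 fell by 0.24 ± 0.07 (edgeR adjusted p = 0.0343). The count of 10 was 4 without PBS_GFP replicate 2 and 6 without replicate 3 or 4, and the count of 2 lay between 1 and 6 when single hearts were left out.

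Genes that build ribosomes did not move as a block. Of 66 genes of rRNA transcription and ribosome assembly, 7 rose (10.6%) and 2 fell (3.03%) in C26_GFP against PBS_GFP, with a median of -0.04. Of all genes 14.2% were called higher and 14% lower, so neither share of the list was above the background. The nucleolar GTPase genes Gnl2 and Gnl3 rose by 0.51 ± 0.11 and 0.54 ± 0.14, Sbds, which helps release a late assembly factor from the large subunit, by 0.33 ± 0.09, and Rrp1 by 0.23 ± 0.05 (edgeR adjusted p = 0.00133, 0.00351, 0.00638 and 0.00169). Utp20, of the small subunit processome, changed by -0.46 ± 0.10 (edgeR adjusted p = 0.00157), with all C26_GFP hearts below all PBS_GFP hearts. In C26_REVERBa against C26_GFP 1 rose (1.52%) and 2 fell (3.03%), against 3.75% of all genes called higher and 3.45% called lower. Ubtf, a factor of RNA polymerase I, gave -0.20 ± 0.05, Sbds -0.25 ± 0.07 and Utp20 0.29 ± 0.08 (edgeR adjusted p = 0.0143, 0.0272 and 0.0291). That count of 3 lay between 1 and 8 when single hearts were left out.

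Of 20 genes of the mTORC1 and LARP1 pathway, 7 rose (35%) and 1 fell (5%) in C26_GFP against PBS_GFP, with a median of 0.10, against 14.2% of all genes called higher and 14% called lower. Those that rose include inhibitors of the pathway. Ddit4, which restrains mTORC1, had 74.8, 231 and 419 CPM in C26_GFP, against 52.8, 38.4, 55.1 and 114 CPM in PBS_GFP, and rose by 1.91 ± 0.44 (edgeR adjusted p = 0.00174). Eif4ebp1, which encodes the translation repressor 4E-BP1, had 88.9, 154 and 205 CPM in C26_GFP, against 89.5, 77.7, 93.5 and 88.7 CPM in PBS_GFP, and rose by 0.81 ± 0.18 (edgeR adjusted p = 0.000976). Tsc2, Sesn1 and Mtor itself rose by 0.28 ± 0.06, 0.63 ± 0.15 and 0.26 ± 0.08, and Lamtor1, of the lysosomal anchor, fell by 0.19 ± 0.07 (edgeR adjusted p = 0.00129, 0.00177, 0.0221 and 0.0402). The count of 8 was 5 without PBS_GFP replicate 3. In C26_REVERBa against C26_GFP 2 fell (10%, against 3.45% of all genes), Eif4ebp1 by 0.51 ± 0.13 and Ddit4 by 0.98 ± 0.30 (edgeR adjusted p = 0.0185 and 0.0422). Eif4ebp1 had 79.7, 102 and 156 CPM in C26_REVERBa and Ddit4 36.8, 133 and 199 CPM. That count was 1 to 3 when single hearts were left out.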

How the data were processed

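Heart RNA of 29 mice was sequenced as 50 bp pairs from stranded total RNA libraries, without poly(A) selection, from 50 to 100 ng of RNA, per the labels' protocols. The authors deposited whole-number read counts per RefSeq gene. Listed in the submitters' processing notes are mm10, DESeq2 1.24.0 and STAR 2.4.2a, with no roles. The counting tool and its strand setting were not given in the sources used here. Starts were raised by 1, since 11362 of 20236 matched accessions then had the RefSeq start and 722 did as given. One column (1 per-sample column) matched no label and was not used. All 406 pairs of libraries differed by more than sampling noise, with a chi-square of at least 2.71 times its degrees of freedom. Each library is 1 animal.

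Counts were fitted in R 4.3.3 with edgeR 4.0.16 (TMM scaling, filterByExpr with a minimum count of 10 and total of 15, 1 quasi-likelihood model of 4 groups, Benjamini-Hochberg adjustment over 12928 genes, threshold 0.05). The SE is the size of the log2 fold change over the square root of F. DESeq2 1.42.0, other scalings, filters, fits and left-out libraries were alternatives. The Rpl3l ratio used a prior count of 0.5 and permutation tests. The procedure was tested on simulated data. Named genes were those with the smallest p in each comparison (8 in each of the first 2 comparisons, 2 in the others), the 3 highest and 3 lowest per kilobase, a few fixed genes, the like-genes, those on the other side of a call, and up to 3 per list. Rpl5 and others printed for completeness of a count were chosen after their values were seen. So were genes beyond the 3 per list, such as Eif4b, Gnl3, Sesn1 and Mtor. The members and lists were chosen with earlier results of these data known. Some genes named by this rule are not reported here, and 2 of the 77 are not drawn in the plots by gene.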

Additional observations from a re-analysis of the deposited data

Results flagged for a closer look

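Of 192 groups examined for 48 values per heart, 14 had an extreme heart far from its group by Dixon's criterion, and chance gives about 1 in 20. Several lie in hearts with high atrial markers: in C26_REVERBa replicate 9 Rpl3l was low at 155 CPM (next heart 192 CPM), Eef1a1 high at 907 CPM (next 703 CPM), Rpl37rt high at 6.4 CPM (next 4.26 CPM), and the log2 ratio of Rpl3l to Rpl3 low at 0.97 (next 1.55). In C26_REVERBa replicate 4 Rps2 was high at 426 CPM (next 367 CPM). In PBS_REVERBa replicate 3 Fau was high at 32.5 CPM (next 24.7 CPM) and Eef1a1 at 663 CPM (next 565 CPM). In C26_GFP replicate 3 Tsc2 was low at 73.7 CPM (next 85.2 CPM).

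In the other hearts, Rplp0 was low in C26_REVERBa replicate 8 at 66.5 CPM (next 98.4 CPM), the heart with the smallest share of ribosomal protein counts. Rpsa was high in C26_GFP replicate 6 at 206 CPM (next 172 CPM), the heart with the largest share. Ubtf was high in C26_GFP replicate 8 at 119 CPM (next 108 CPM). Rpl10a was high in PBS_REVERBa replicate 1 at 42.7 CPM (next 38.5 CPM), Rps24 low in PBS_REVERBa replicate 2 at 69.8 CPM (next 82.6 CPM), and Rpl22l1 low in PBS_GFP replicate 3 at 1.72 CPM (next 3.12 CPM).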

How the results depend on the processing

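The direction of the median change of the ribosomal protein genes was kept under every alternative run, leave-one-out included, in C26_GFP against PBS_GFP (0.17 to 0.25) and in C26_REVERBa against C26_GFP (-0.22 to -0.12). Counts of called genes were less stable, and the cause was not tested. Same-numbered hearts did not deviate together (5 of 32 pairs with a correlation above 0.1, median -0.02, and 2 libraries correlated best with their own number), so the numbers do not pair them. With the replicate block, called ribosomal protein genes numbered 12 (C26_GFP against PBS_GFP) and 2 (C26_REVERBa against C26_GFP), TOP and elongation genes 6 and 1, mTORC1 genes 5 and 0, and assembly genes in the second comparison 1. Without the libraries above 10000000 counts the first comparison gave 4 ribosomal protein, 4 TOP, 4 assembly and 4 mTORC1 genes. In that setting the groups differed in the log2 ratio of Rpl3l to Rpl3 by -0.80. Too few PBS_GFP hearts were left there for the exact test to pass at any values. Without the high-atrium libraries the first comparison gave 11 ribosomal protein and 5 TOP genes, and the second 19, 4 and, for mTORC1, 1. Thinned to the smallest total, it gave 11, 4 and, for assembly, 4, and the second 1 and 1. DESeq2 gave 12 ribosomal protein, 4 TOP and 5 assembly genes in the second comparison. A fit of only its 2 groups gave 1 TOP, 1 assembly and 0 mTORC1 genes, and a robust fit 1 mTORC1 gene. Leaving out each library in turn gave 12 to 26 and 2 to 22 ribosomal protein genes in the first and second comparison, and 0 to 1 in C26_REVERBa against PBS_REVERBa (1 without C26_REVERBa replicate 1 or 7). The lists gave 4 to 12 and 1 to 6 (TOP), 7 to 13 and 1 to 8 (assembly) and 5 to 8 and 1 to 3 (mTORC1). The difference between groups in the log2 ratio of Rpl3l to Rpl3 was -0.74 to -0.59 in C26_GFP against PBS_GFP. It was 0.29 to 0.45 in C26_REVERBa against C26_GFP and -0.16 to 0.02 in PBS_REVERBa against PBS_GFP. In the last of these it changed sign without PBS_REVERBa replicate 3 (0.0189).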
